A study of Mus musculus with 72 samples.

Results

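The 38 genes described here are expressed by macrophages, among them Kupffer cells, the resident macrophages of the liver. They were taken from a list of gene symbols chosen with earlier results of these data known. Each was measured by a probe set of the array that carries its symbol alone. Where a gene has several such probe sets, the brightest was used. All 38 were measured, each by 1 probe set, among 19938 genes in all. Livers came from male wild-type animals of the strains 129P2/OlaHsd (129), C57BL/6J (B6J), C57BL/6NTac (B6N) and C3HeB/FeJ (C3H). The mice were housed alone and ate freely before sampling. One group of each strain was fed a high-fat diet (HFD), for 21 days, and the other was its control. Per the labels' protocols a low-fat diet was fed for up to 21 days, but the treatment label of the controls reads none, so the diet of every control is not settled. There were 7 HFD and 8 control arrays of 129 and likewise of B6J, 8 HFD and 8 control arrays of B6N, and 8 HFD and 18 control arrays of C3H. All 129 mice were 17 weeks old. In the other 3 strains HFD mice were 17 weeks old and controls 15 to 17 weeks, so age may go partly with diet there, and its part in the results was not tested.

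Kupffer cells line the liver sinusoids, take up particles, bacteria and dying cells, and in the mouse are recognised by the lectin Clec4f together with Vsig4, Timd4 and Marco. They are seeded before birth and renew themselves, and they depend on signals of their niche and on the transcription factor PU.1, which Spi1 encodes. Blood monocytes that enter an injured or fatty liver carry the chemokine receptor Ccr2 and the integrins Itgam and Itgax, and macrophages that take up lipid in chronic steatosis express Trem2 and Gpnmb. The list therefore splits by role into resident Kupffer cell genes (7), complement C1q chains (3), pan-macrophage genes (9), leukocyte signalling and Fc receptor genes (6), pattern recognition and scavenger receptors (4), genes of recruited monocytes and chemokines (7) and lipid-associated macrophage genes (2).

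The promoters of members whose expression moved are shown because PU.1 and MAF factors bind short motifs in many macrophage promoters. Each window runs 5′ to 3′ from 250 bases before to 50 bases after the start of the gene in RefSeq (build GRCm38.p6). Capitals mark GAGGAA, the core of the PU.1 motif, and TGCTGA, the core of the MAF recognition element, on either strand (TTCCTC and TCAGCA on the other).
C1qb, chr4:136886151-136886450, minus strand: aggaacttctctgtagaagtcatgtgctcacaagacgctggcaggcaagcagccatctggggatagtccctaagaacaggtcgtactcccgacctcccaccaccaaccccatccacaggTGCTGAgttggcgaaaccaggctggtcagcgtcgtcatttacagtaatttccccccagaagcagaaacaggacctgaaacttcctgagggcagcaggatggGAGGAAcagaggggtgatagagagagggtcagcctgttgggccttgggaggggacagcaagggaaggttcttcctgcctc
C1qc, chr4:136892865-136893164, minus strand: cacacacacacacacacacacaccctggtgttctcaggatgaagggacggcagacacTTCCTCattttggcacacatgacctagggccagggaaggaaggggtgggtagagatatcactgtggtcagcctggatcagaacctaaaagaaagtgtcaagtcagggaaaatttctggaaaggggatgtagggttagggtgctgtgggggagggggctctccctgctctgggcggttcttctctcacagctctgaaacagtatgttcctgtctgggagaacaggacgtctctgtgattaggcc
Cd5l, chr3:87357631-87357930, plus strand: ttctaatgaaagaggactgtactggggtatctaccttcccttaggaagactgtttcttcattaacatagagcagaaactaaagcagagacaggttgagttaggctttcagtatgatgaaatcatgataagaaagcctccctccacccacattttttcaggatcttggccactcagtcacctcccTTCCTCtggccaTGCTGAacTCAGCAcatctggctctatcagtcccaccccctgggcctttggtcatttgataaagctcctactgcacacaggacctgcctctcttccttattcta
Clec4f, chr6:83656067-83656366, minus strand: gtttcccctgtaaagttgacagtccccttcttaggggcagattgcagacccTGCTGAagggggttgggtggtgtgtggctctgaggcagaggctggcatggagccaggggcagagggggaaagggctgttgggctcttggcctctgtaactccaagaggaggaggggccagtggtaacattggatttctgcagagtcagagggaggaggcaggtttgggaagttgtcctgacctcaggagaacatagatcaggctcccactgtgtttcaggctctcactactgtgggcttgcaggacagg
Tlr13, chrX:106143025-106143324, plus strand: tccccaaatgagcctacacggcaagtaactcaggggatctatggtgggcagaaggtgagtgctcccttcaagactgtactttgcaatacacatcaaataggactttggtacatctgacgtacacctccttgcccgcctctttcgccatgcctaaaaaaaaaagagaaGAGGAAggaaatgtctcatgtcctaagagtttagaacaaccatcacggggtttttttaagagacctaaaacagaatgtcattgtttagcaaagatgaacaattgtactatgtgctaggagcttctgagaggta
Ccl9, chr11:83578587-83578886, minus strand: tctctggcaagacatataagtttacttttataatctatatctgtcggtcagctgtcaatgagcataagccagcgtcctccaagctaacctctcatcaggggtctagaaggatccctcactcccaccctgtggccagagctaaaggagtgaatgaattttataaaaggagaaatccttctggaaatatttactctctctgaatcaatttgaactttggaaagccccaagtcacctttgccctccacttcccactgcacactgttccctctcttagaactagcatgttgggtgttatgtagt
Cd5l held both motifs, with TGCTGA and its reverse complement close together, and C1qb also held both. C1qc and Tlr13 held GAGGAA, Clec4f held TGCTGA, and the Ccl9 window held neither. C1qb, C1qc and C1qa are neighbours on chromosome 4 with no other listed gene between them. A window was found for 30 of the 38 members. GAGGAA lay in 17 of these 30 (56.7%), against 28.3% of the windows of all 27025 genes. TGCTGA lay in 10 of 30 (33.3%), against 19.1%, and the longer GAGGAAGT, every match of which is also a match of GAGGAA, in 2 of 30 (6.67%), against 3.28%. Matches of GAGGAA and TGCTGA can share bases. These are matches of letters, not binding sites.

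Values are log2 signals, and a difference of 1 on this scale is a doubling. The arrays formed 3 sets with array medians of 6.46 to 6.65 (129), 4.51 to 4.67 (B6J and B6N) and 3.10 to 3.28 (C3H), so levels are comparable only within a set, and no level of a gene is set against that of another gene. Of the Kupffer cell genes, the group means of Clec4f, Vsig4 and Cd5l lay between 2.35 and 4.18 above the median gene and those of Timd4 between 0.89 and 1.67. Marco lay below the median gene in both 129 groups and in C3H HFD livers (by 0.02 in the last), Cd163 in both 129 groups and Folr2 in both C3H groups. Members below the median gene, which cannot be told from background because no detection calls were given, numbered 9 in each B6 group and 11 to 14 in the others. Ccr2, Itgam, Itgax, Cysltr1, Gpnmb and Cd14 were below it in all 8 groups. Tlr13 was below it in all groups except 129 HFD livers, Cd44 in 129 controls and both C3H groups, Aif1 in both 129 and both C3H groups, and Spi1 in all B6 and C3H groups. The arrays of each set were cut into 2 parts by their overall profile after the group means were taken out. The number of parts was fixed beforehand, so the split itself is no finding. In the B6 and C3H sets each part held HFD and control livers of each strain. In 129 the cut set control replicate 6 apart from the other 14 arrays. Pancreatic acinar genes varied widely between livers of a group (list means of 6.63 to 12.70 in 129 HFD and 6.72 to 11.67 in 129 control livers), and with their mean as a covariate 13 members were called in 129 in place of 14.

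In 129 livers, macrophage genes were higher on HFD. Of the 38 members 14 rose and 0 fell at an adjusted p under 0.05 (limma, Benjamini-Hochberg over all 19938 genes), against 0.577% of all genes called (0.441% higher, 0.135% lower). The members were chosen with earlier results of these data known, so their shares, here and below, are not independent of these arrays. The log2 change was above 0 for 34 of 38 members and for 51.0% of all genes, and the median change was 0.44 over the members and 0.00 over all genes. The largest change was that of Adgre1, at 1.97-fold. A bulk liver sample cannot tell more macrophages from more RNA of these genes in each macrophage.

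Resident Kupffer cell genes were among those that rose. Cd5l, a protein that macrophages secrete and that is abundant in Kupffer cells, ran from 9.46 to 11.06 (median 9.94) in 129 HFD livers and from 8.87 to 9.72 (median 9.20) in 129 controls. It rose 1.73-fold (95% interval 1.38 to 2.17; n = 7 and 8; limma adjusted p = 0.0039), and 5 of 7 HFD arrays lay above every control. This interval, like the other intervals and SEs given here, rests on a spread pooled over the arrays of all strains. The SD of Cd5l was 0.571 among 129 HFD livers and 0.254 among 129 controls, so its interval may be too narrow for 129. Clec4f, a lectin of mouse Kupffer cells, ran from 9.63 to 10.16 (median 9.80) on HFD and from 9.16 to 9.72 (median 9.39) in controls, a rise of 0.44 ± 0.11 (log2 change ± SE; adjusted p = 0.045). Its groups overlapped, with 5 of 7 HFD arrays above all controls. Folr2, the macrophage folate receptor, ran from 8.12 to 8.96 (median 8.55) on HFD and from 7.67 to 8.25 (median 8.15) in controls, with 6 of 7 HFD arrays above all controls (0.46 ± 0.11, adjusted p = 0.024). The complement receptor Vsig4 (0.53 ± 0.18), the phosphatidylserine receptor Timd4 (0.39 ± 0.14) and the haemoglobin scavenger receptor Cd163 (0.30 ± 0.17) had positive changes that did not pass the test (adjusted p = 0.26, 0.40 and 0.99). The scavenger receptor Marco had 0.11 ± 0.17.

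C1q, the recognition molecule of the classical complement pathway, is made in the body mainly by macrophages and has 3 chains. C1qb ran from 9.92 to 11.13 (median 10.36) in 129 HFD livers and from 9.45 to 9.92 (median 9.70) in controls, a rise of 0.77 ± 0.18 (adjusted p = 0.021). C1qc ran from 8.95 to 10.32 (median 9.61) on HFD and from 8.59 to 9.07 (median 8.87) in controls, a rise of 0.75 ± 0.15 (adjusted p = 0.0021). For both chains 5 of 7 HFD arrays lay above every control. C1qa had a change of 0.56 ± 0.15 that missed the threshold (adjusted p = 0.065).

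Among the pan-macrophage genes 3 of 9 rose in 129. Adgre1, which encodes the macrophage surface protein F4/80, ran from 8.07 to 11.11 (median 8.54) on HFD and from 7.54 to 8.50 (median 7.88) in controls. Its interval reached from 1.45-fold to 2.66-fold (adjusted p = 0.0096), but 1 array decided the call. HFD replicate 6 stood at 11.11, the other HFD arrays ran from 8.07 to 9.0, and without it the change was 0.60 (adjusted p = 0.11, within 0.00079 to 0.33 over all alternatives run). Without the same array Cd68, Spi1, C1qb, Clec4f, Folr2, Fcer1g and Ptprc were not called either (limma adjusted p = 0.079 to 0.26). Cd68, a lysosomal protein of phagocytes, ran from 8.58 to 9.29 (median 8.91) on HFD and from 7.79 to 8.56 (median 8.45) in controls (0.52 ± 0.13, adjusted p = 0.033). Every HFD array lay above every control, which 0.176% of all genes did in 129. Spi1 ran from 7.70 to 8.62 (median 7.76) on HFD and from 7.11 to 7.76 (median 7.58) in controls, with 3 of 7 HFD arrays above all controls (0.50 ± 0.13, adjusted p = 0.031). The remaining pan-macrophage genes, the growth factor receptor Csf1r, the pore protein Mpeg1, the lysozyme Lyz2, the proteases Ctss and Lgmn, and Aif1 (IBA1), had changes of 0.25 to 0.64 that did not pass the test.

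Of the leukocyte signalling genes 3 of 6 rose. Tyrobp, the adaptor DAP12 of myeloid receptors, ran from 8.91 to 10.48 (median 9.32) in 129 HFD livers and from 8.34 to 8.94 (median 8.61) in controls. It rose 1.81-fold (1.48 to 2.21; adjusted p = 0.00020), with 6 of 7 HFD arrays above every control. Fcer1g, the signalling chain of Fc receptors, ran from 8.85 to 10.37 (median 9.67) on HFD and from 8.76 to 9.15 (median 8.98) in controls, also with 6 of 7 above all controls (0.70 ± 0.16, adjusted p = 0.012). Ptprc, the pan-leukocyte phosphatase CD45, ran from 7.58 to 9.0 (median 8.18) on HFD and from 7.26 to 7.74 (median 7.48) in controls (0.66 ± 0.17, adjusted p = 0.038). In Ptprc 5 of 7 HFD arrays lay above all controls. The Fc receptors Fcgr1 and Fcgr3 and the lysosomal protein Laptm5 had changes of 0.28 ± 0.11, 0.36 ± 0.12 and 0.44 ± 0.15 and did not pass.

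Among the pattern recognition receptors, Tlr13, which senses bacterial ribosomal RNA in the mouse, rose 1.79-fold (1.47 to 2.17; adjusted p = 0.00020). It ran from 6.94 to 8.67 (median 7.33) in 129 HFD livers and from 6.29 to 6.98 (median 6.75) in controls, and 6 of 7 HFD arrays lay above every control. Its control mean lay 0.16 below the median gene, so the size of the fold is uncertain. The lipopolysaccharide co-receptor Cd14, the mannose receptor Mrc1 and the scavenger receptor Msr1 had changes of 0.25 ± 0.11, 0.28 ± 0.19 and 0.30 ± 0.19, and none passed the test.

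Of the 7 genes of recruited monocytes and chemokines 2 rose in 129. Their median change was 0.00, against 0.44 over the 7 resident genes. The difference between the lists was not tested. The chemokine receptors Ccr2 (0.19 ± 0.10) and Cx3cr1 (-0.01 ± 0.12), the integrins Itgam (0.00 ± 0.08) and Itgax (-0.05 ± 0.09) and the chemokine Ccl9 (-0.12 ± 0.16) did not pass. Ccr2, Itgam and Itgax lay below the median gene in both groups, so their values do not bound a change in expression. Cd44, the hyaluronan receptor of leukocytes and other cells, ran from 7.14 to 7.96 (median 7.49) on HFD and from 6.65 to 7.12 (median 6.87) in controls. It rose 1.63-fold (1.39 to 1.91; adjusted p = 0.00014), and every HFD array lay above every control. Its control mean lay 0.02 below the median gene, so the size of this fold is uncertain too. Cysltr1, a receptor for cysteinyl leukotrienes, ran from 5.96 to 7.03 (median 6.42) on HFD and from 5.67 to 6.21 (median 5.84) in controls (0.57 ± 0.10, adjusted p = 0.00020), with 5 of 7 HFD arrays above all controls. Both Cysltr1 means lay below the median gene. The lipid-associated genes Trem2, a lipid receptor (-0.15 ± 0.11), and Gpnmb, a lysosomal glycoprotein (0.05 ± 0.08), did not pass.

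**Figure D1:**
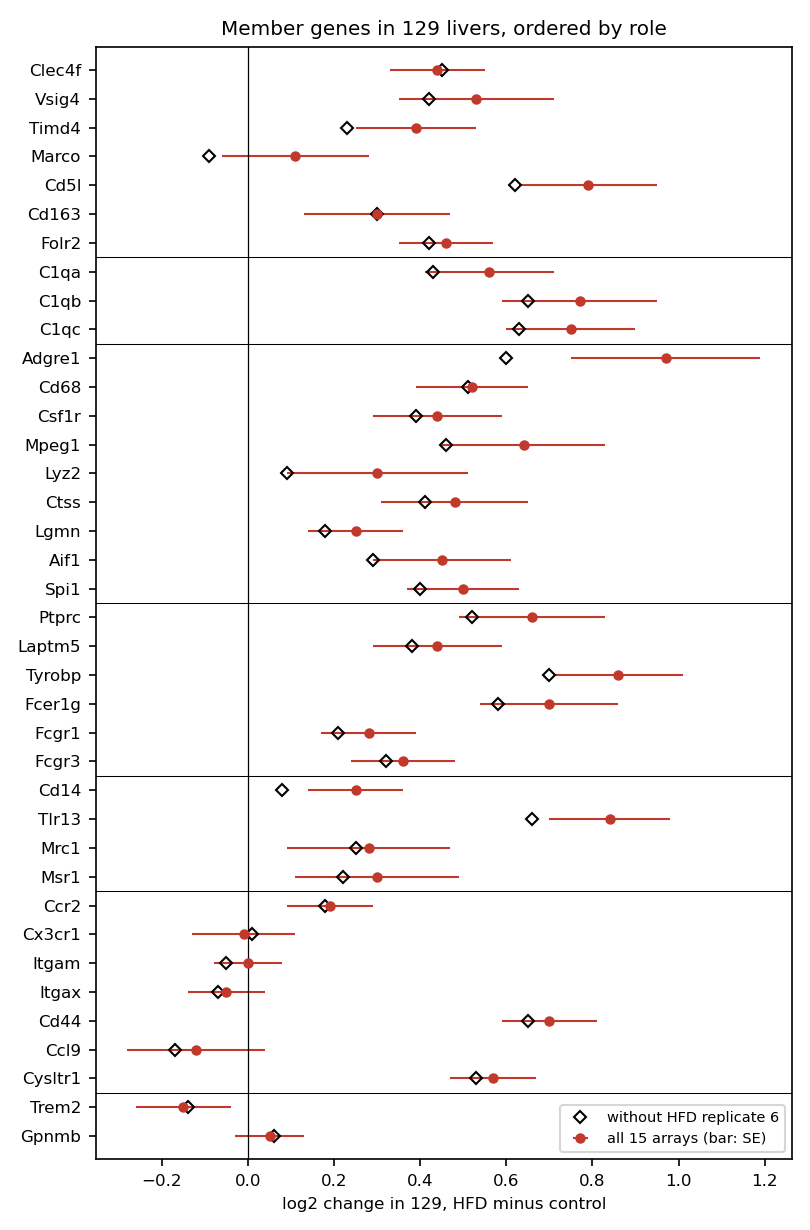
Log2 change (HFD minus control) ± SE of each of the 38 genes in 129, with all 15 arrays and without HFD replicate 6, grouped by role. Adgre1 moves most, to 0.60 without that array, and Cd44, Tyrobp, Tlr13 and Cysltr1 stay between 0.53 and 0.70.

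The 129 result depended on which arrays entered the fit. HFD replicate 6 was the highest of the 15 arrays for 23 of the 38 members, and without it 6 members were called (Cd5l, C1qc, Tyrobp, Tlr13, Cd44 and Cysltr1), with a median change of 0.38. Without control replicate 1, HFD replicate 1 or HFD replicate 3 there were 8, 8 and 7 calls, and without both arrays numbered 6, left out together after the data were seen, 5. Cd44, Tyrobp, Tlr13, Cysltr1, Cd5l and C1qc were called whichever of the 15 arrays was left out. With the spread estimated from the 15 arrays of 129 alone, Cd44 was the only member called (adjusted p = 0.018, the highest of 1.5e-07 to 0.018 over its alternatives) and the others that rose had adjusted p-values of 0.060 to 0.33. The SD of Adgre1 was 1.04 among 129 HFD livers and 0.289 among 129 controls, and that of Fcer1g was 0.531 among HFD livers and 0.149 among controls. Members varied together across the 129 arrays after the group means were taken out, with a median correlation of 0.51 over all pairs of members, against 0.26, 0.21 and 0.09 in B6J, B6N and C3H. All genes of a liver share its array, so these correlations are a description.

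**Figure D2:**
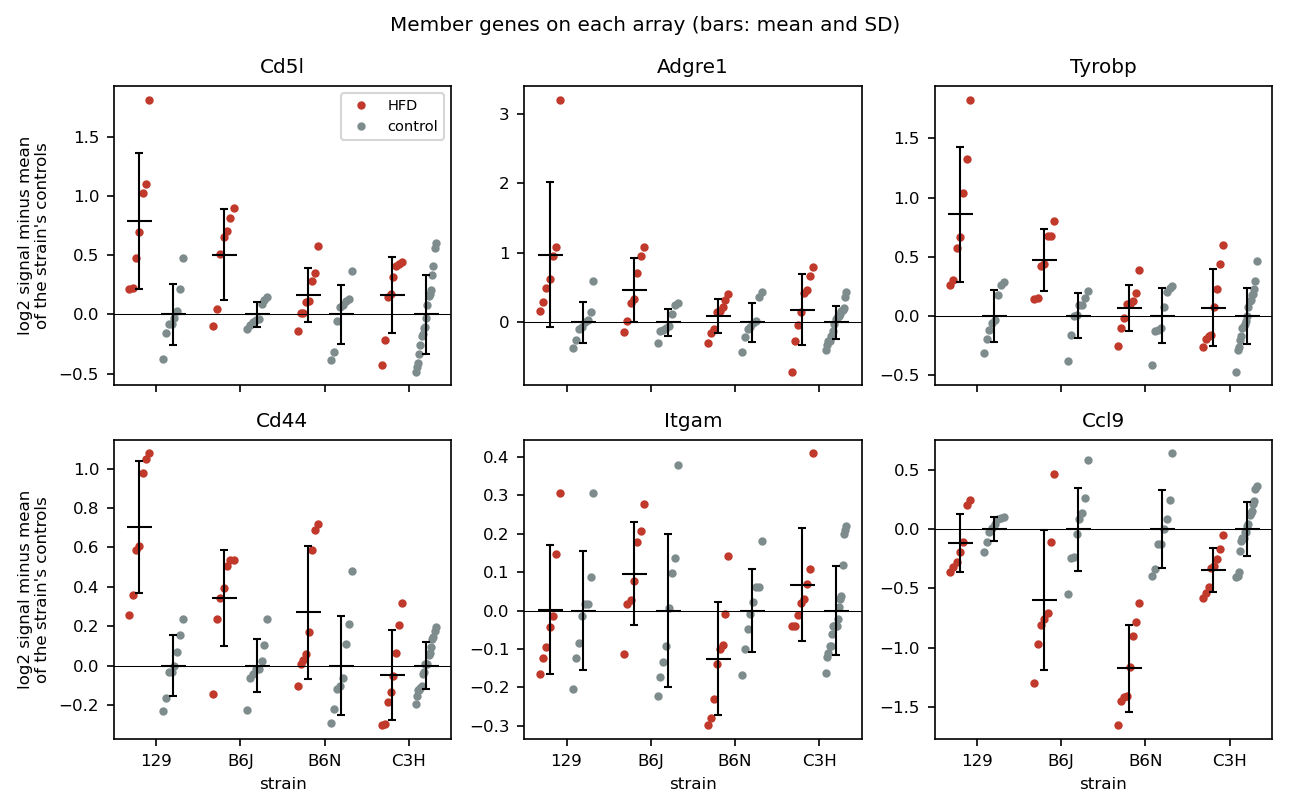
Log2 signal of Cd5l, Adgre1, Tyrobp, Cd44, Itgam and Ccl9 on each array minus the mean of that strain's controls, with HFD left of control in each strain. In 129 the HFD points of Cd44 lie above all controls and Adgre1 has a single point at 11.11 on the original scale, and in B6N the HFD points of Ccl9 lie below all controls.

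Markers of other cell types were examined beside these rises. In 129 livers 0 of 13 lymphocyte, 0 of 10 neutrophil, 0 of 10 sinusoidal endothelial, 0 of 10 stellate cell, 0 of 8 hepatocyte, 0 of 7 dendritic cell and 0 of 13 acinar genes were called by limma (1, 1, 1, 0, 0, 1 and 0 at an unadjusted p under 0.05). Their median changes were 0.07, -0.01, 0.04, 0.12, -0.03, -0.03 and 0.61. Over all genes 0.577% were called in 129 and 5.48% were at an unadjusted p under 0.05. Lists this short would thus hold few or no calls in any case, and the 0 counts do not set these cell types apart. The mean of the lymphocyte list ran from 5.52 to 5.93 in 129 HFD livers and from 5.49 to 5.90 in 129 controls, that of the neutrophil list from 5.44 to 5.57 on HFD and from 5.38 to 5.88 in controls. Both control maxima came from replicate 6. The mean of the 7 resident genes ran from 8.35 to 9.27 on HFD and from 8.07 to 8.53 in controls.

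**Figure D3:**
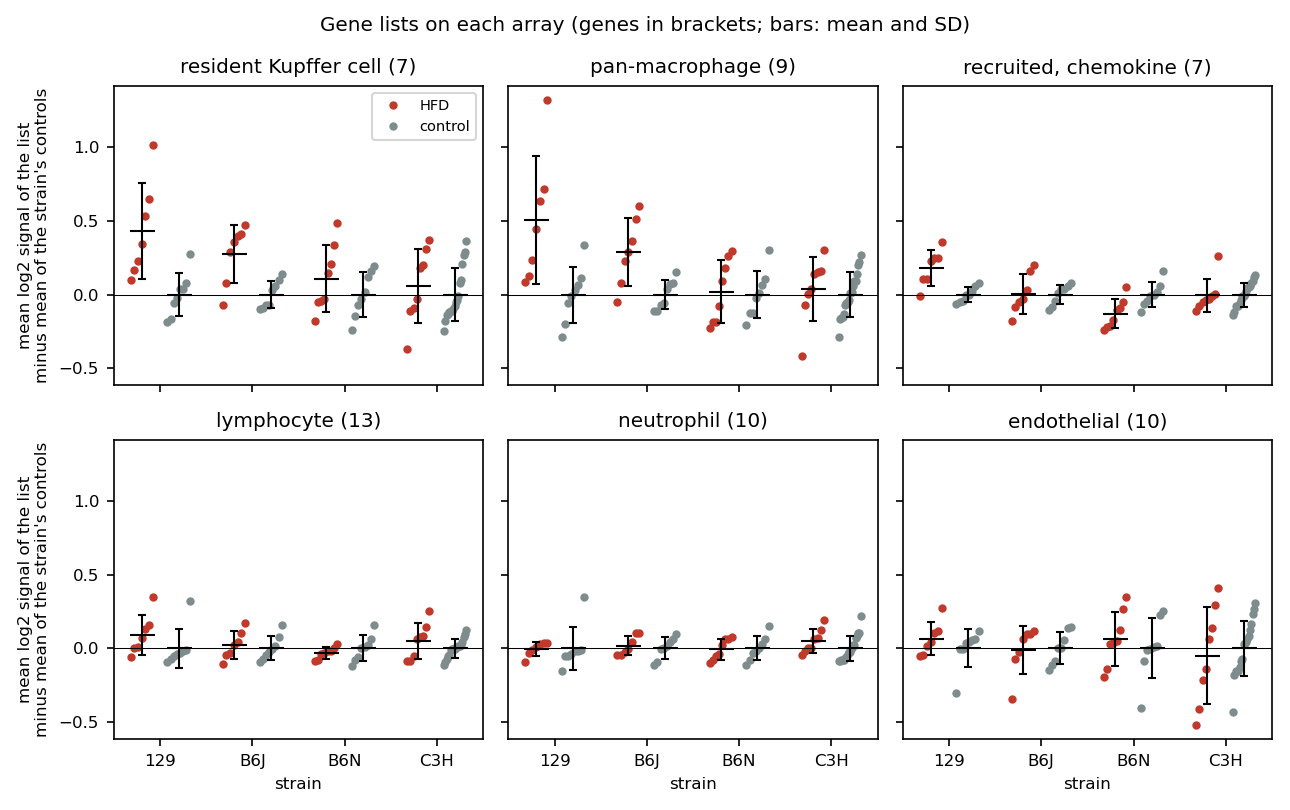
Mean log2 signal of 6 gene lists on each array minus the mean of that strain's controls, with the group mean and SD as bars and HFD left of control. In 129 the resident and pan-macrophage means are shifted upwards on HFD but overlap between the groups. The neutrophil means overlap in all 4 strains.

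Further macrophage genes outside the 38 were examined in 129, on the same arrays and in lists also chosen with earlier results of these data known. Over all genes 51.0% had a change above 0 there and 0.577% were called. At an unadjusted p under 0.05 there were 5.48% of all genes (3.66% higher). Of 23 measured other Kupffer cell and phagocyte genes 19 had a change above 0 and 15 were higher at an unadjusted p under 0.05, with a median change of 0.35, and 2 rose by the adjusted test: Lcp2, the signalling adaptor SLP-76 (0.54 ± 0.11, adjusted p = 0.0032), and Axl, a receptor for the uptake of dying cells (0.40 ± 0.10, adjusted p = 0.018). The mean of these 23 genes was 8.77 on 129 HFD replicate 6 and ran from 7.92 to 8.36 on the other 129 HFD arrays. Of 11 macrophage transcription factors 4 were higher at an unadjusted p under 0.05 and 1 rose by the adjusted test, Spic (0.61 ± 0.15, adjusted p = 0.021), a relative of PU.1. Of 15 colony-stimulating factors and chemokines and of 12 inflammatory cytokines 0 were called by limma in 129 (2 and 3 at an unadjusted p under 0.05), with medians of 0.10 and 0.04, and of 11 genes of macrophage lipid handling 0 were called (2 unadjusted), with a median of 0.13.

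In B6J livers 0 of 38 members passed the test, against 0.296% of all genes. At an unadjusted p under 0.05 there were 15 members, 14 higher and 1 lower, against 5.78% of all genes (3.08% higher), and 33 of 38 changes were above 0 (51.8% of all genes). Cd5l ran from 7.88 to 8.88 (median 8.63) in B6J HFD livers and from 7.86 to 8.13 (median 7.93) in B6J controls, with 5 of 7 HFD arrays above all controls (0.50 ± 0.16, adjusted p = 0.32). Tyrobp ran from 5.72 to 6.38 (median 6.02) on HFD and from 5.20 to 5.79 (median 5.63) in controls, likewise with 5 of 7 above (0.47 ± 0.15, adjusted p = 0.23). Ccl9, a chemokine of the CC family that acts on the receptor Ccr1, went the other way. It ran from 7.47 to 9.23 (median 8.01) on HFD and from 8.22 to 9.35 (median 8.78) in controls, with 5 of 7 HFD arrays below every control (-0.60 ± 0.16, adjusted p = 0.085). Ccl9 was called when B6J control replicate 8, HFD replicate 3 or HFD replicate 5 was left out. The median change was 0.29 over the resident genes and 0.03 over the recruited genes. Of the recruited genes, Ccr2, Cx3cr1, Itgam, Itgax and Cysltr1 lay below the median gene in both B6J groups. Their changes near 0 may therefore not show what their expression did.

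In B6N livers the single called member was Ccl9, against 0.918% of all genes called (0.281% lower). It ran from 7.0 to 8.03 (median 7.37) in B6N HFD livers and from 8.26 to 9.29 (median 8.59) in B6N controls. It fell 2.25-fold (1.83 to 2.78; n = 8 each; adjusted p = 8.0e-08), and all 8 HFD arrays lay below every control, which 0.115% of all genes did in B6N. The fall was called in each fit that left out 1 of the 16 arrays. Members other than Ccl9 had smaller changes, with a median of 0.05 over all 38. Of the 38 changes 27 were above 0 (48.9% of all genes). The next largest changes were those of Marco, which ran from 4.98 to 6.23 (median 5.34) on HFD and from 4.60 to 5.59 (median 5.12) in controls (0.31 ± 0.16, adjusted p = 0.90), and of Msr1, which ran from 5.90 to 6.93 (median 6.47) on HFD and from 6.18 to 7.30 (median 6.71) in controls. Both overlapped between the groups. Cd44 had 0.27 ± 0.11 (adjusted p = 0.58). Acinar genes had a median of 1.20 in B6N with 0 of 13 called by limma and 4 at an unadjusted p under 0.05 (5.68% of all genes).

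The 2 parts of the B6 arrays were also compared within themselves. In part 1 Ccl9 averaged 7.88 in B6N HFD livers and 8.98 in B6N controls (n = 3 each), and in part 2 it averaged 7.24 in HFD livers and 8.46 in controls (n = 5 each), differences of -1.09 and -1.22. In B6J the differences were -0.62 (5 HFD and 4 control arrays) and -0.90 (2 HFD and 4 control arrays). The median change of the 7 resident genes was 0.28 and 0.24 in parts 1 and 2 of B6J, and 0.26 and 0.04 in those of B6N. These within-part fits were chosen after the data were seen.

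**Figure D4:**
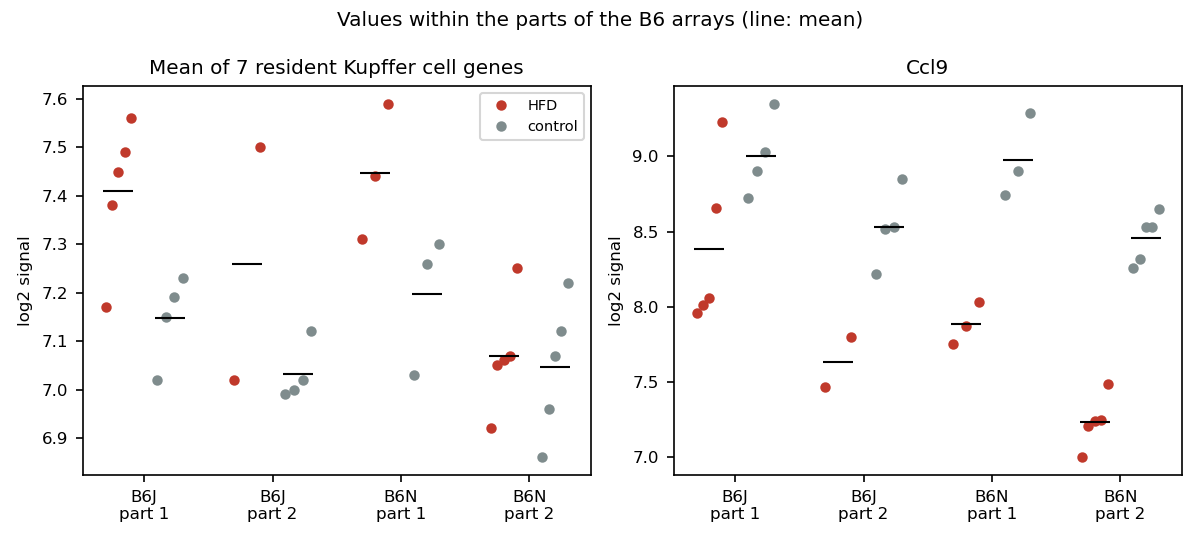
Mean log2 signal of the 7 resident Kupffer cell genes (left) and log2 signal of Ccl9 (right) on each B6 array within the parts of the array set, HFD left of control, lines at the means. Ccl9 is on average lower on HFD in both parts of both strains and does not overlap between the groups within either part of B6N. The resident mean overlaps in part 2 of B6N and in both parts of B6J.

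In C3H livers 0 of 38 members passed the test, against 0.853% of all genes. At an unadjusted p under 0.05 there were 5, 4 higher and 1 lower, against 8.24% of all genes (5.07% higher). Of the 38 changes 23 were above 0 (54.0% of all genes). Ccl9 ran from 7.90 to 8.43 (median 8.16) in C3H HFD livers and from 8.08 to 8.84 (median 8.49) in C3H controls (-0.34 ± 0.13, adjusted p = 0.35). Mpeg1 ran from 5.37 to 6.50 (median 5.86) on HFD and from 5.47 to 7.41 (median 6.19) in controls (-0.30 ± 0.15), and Aif1 from 2.65 to 4.19 (median 3.19) on HFD and from 2.41 to 3.46 (median 3.01) in controls (0.27 ± 0.13). All 3 overlapped between the groups. The median change was 0.06 over the resident and 0.04 over the recruited genes. All recruited genes but Ccl9, and the resident gene Folr2, lay below the median gene in both C3H groups, which limits these medians.

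Averaged over the 4 strains, 15 members were called, 14 higher and 1 lower, against 3.16% of all genes (2.02% higher, 1.14% lower). Of the members called in 129, those called here too were Cd44, Tyrobp, Cd5l, Clec4f, Ptprc, Adgre1, C1qc, C1qb, Tlr13, Spi1 and Folr2, with mean effects of 0.20 to 0.43. Cd68, Fcer1g and Cysltr1, also called in 129, were not called in the mean effect. Timd4 (0.25 ± 0.07, adjusted p = 0.018), Laptm5 (0.24 ± 0.07, adjusted p = 0.037) and Aif1 (0.25 ± 0.08, adjusted p = 0.046) rose in the mean effect without a call in any strain, and leaving out 1 array ended the call in 0, 20 and 40 of 72 fits. Timd4 ran from 7.80 to 9.13 (median 8.15) in 129 HFD livers and from 7.52 to 8.03 (median 7.80) in 129 controls, and from 6.11 to 6.96 (median 6.62) in B6J HFD livers and from 5.78 to 6.43 (median 6.18) in B6J controls. Laptm5 ran from 8.59 to 9.54 (median 9.22) in 129 HFD livers and from 8.14 to 9.12 (median 8.71) in 129 controls. Its changes in the other strains were 0.31 in B6J and 0.10 in B6N and C3H, and those of Aif1 were 0.45, 0.44, -0.16 and 0.27 in 129, B6J, B6N and C3H. Ccl9 fell 1.47-fold (1.33 to 1.63; adjusted p = 4.2e-08) and was the only member with a change below 0 in each of the 4 strains. The 14 rises were not called without 129. In the mean over B6J, B6N and C3H, computed after the data were seen, Ccl9 was the only member called (-0.70, adjusted p = 1.7e-09, within 4.2e-12 to 7.8e-07 over its alternatives), and the 14 others had changes of 0.07 to 0.28 and adjusted p-values of 0.072 to 0.92.

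**Figure D5:**
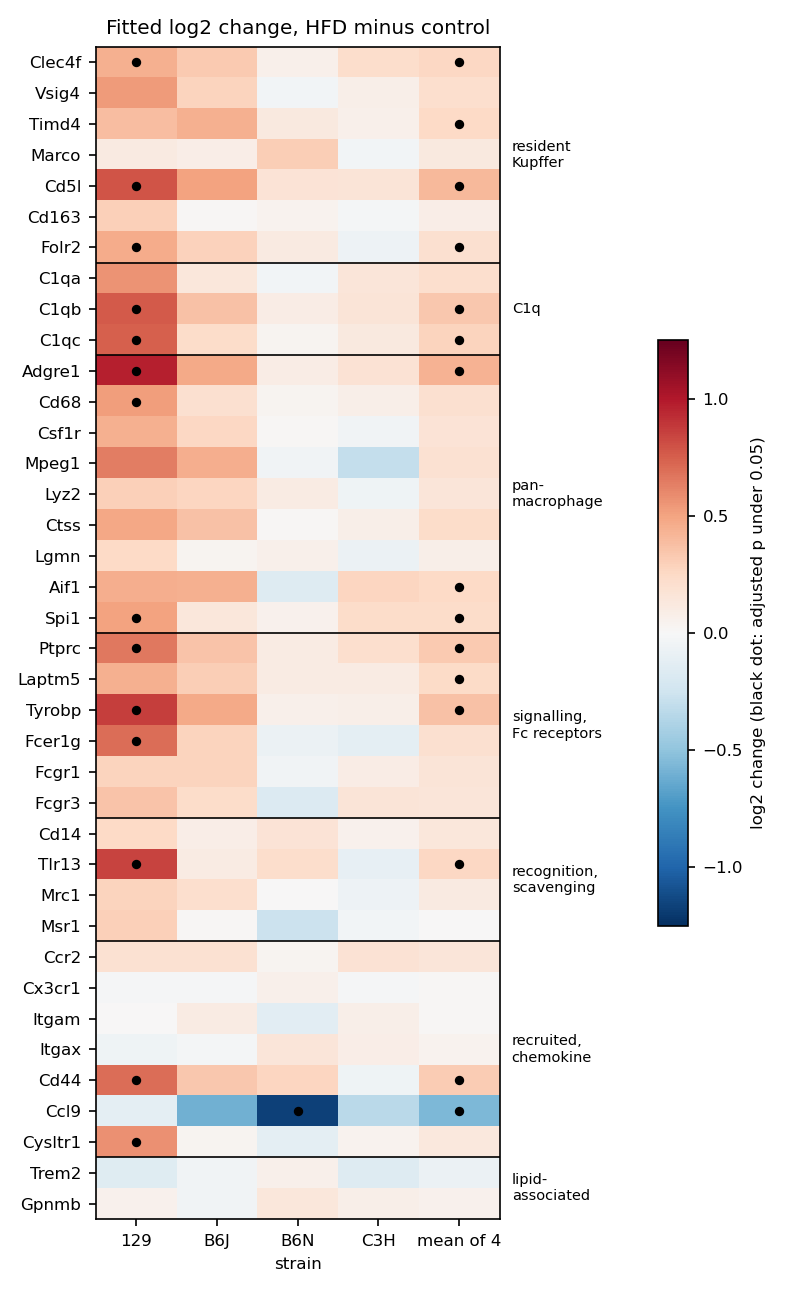
Log2 change (HFD minus control) of the 38 genes in each strain and in the mean over the strains, ordered by role, with dots where the change passed the test. Dots fill the 129 column in 14 places and the B6N column in 1, Ccl9, and the B6J and C3H columns have none.

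Among further genes of the macrophage lists, 5 of 23 other Kupffer cell and phagocyte genes rose in the mean effect, against 2.02% of all genes. The median of these 23 was 0.13. The risers were Lcp2 (0.23 ± 0.05), the tetraspanin Cd53 (0.38 ± 0.10), the protease Ctsc (0.22 ± 0.06), the NADPH oxidase subunit Cybb (0.36 ± 0.10) and Sirpa (0.23 ± 0.06). The transcription factors Irf5 (-0.32 ± 0.06) and Id3 (-0.37 ± 0.11) fell. Irf5 fell in B6N (-0.61 ± 0.12, adjusted p = 0.00068) and in C3H (-0.44 ± 0.10, adjusted p = 0.0082), and its change in 129 was 0.04 ± 0.12. Ccl6, a chemokine related to Ccl9, rose by 0.22 ± 0.07 in the mean effect, and the cytokine gene Tgfb1 by 0.17 ± 0.05. Of the lipid handling genes, Cd36 rose (0.78 ± 0.13) and Fabp5 (-0.89 ± 0.13) and Cd9 (-0.22 ± 0.06) fell in the mean effect, and Lpl fell in C3H (-0.99 ± 0.14). Hepatocytes and other liver cells also express these lipid genes. Of the other cell types Lyve1, of sinusoidal endothelium, and Clec9a, of dendritic cells, rose by 0.22 ± 0.06 each, and the hepatocyte genes Cps1 (-0.31 ± 0.06) and Tat (-0.25 ± 0.08) fell.

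Whether the HFD effect differed between strains was tested directly. The moderated F test of any difference called 4 members, Cysltr1 (adjusted p = 0.014), Tlr13 (0.029), Ccl9 (0.034) and Cd44 (0.043), against 0.125% of all genes. The way the members were chosen limits this share too. The effect on Cysltr1 was 0.57, 0.03, -0.12 and 0.04 in 129, B6J, B6N and C3H, and that on Tlr13 was 0.84, 0.10, 0.22 and -0.10. Both genes lay below the median gene in every B6 and C3H group, so a change near 0 there may not show what their expression did. The effect on Cd44 was 0.70, 0.34, 0.27 and -0.05, and that on Ccl9 was -0.12, -0.60, -1.17 and -0.34. Of the pairwise differences, 129 minus B6N was called for Cysltr1 (0.69 ± 0.13, adjusted p = 0.012) and Ccl9 (1.06 ± 0.22, adjusted p = 0.024), against 0.0401% of all genes. The difference 129 minus C3H was called for Tlr13 (0.94 ± 0.18, adjusted p = 0.0063) and Cd44 (0.75 ± 0.15, adjusted p = 0.0071), against 0.0602% of all genes. Both of these lay below the median gene in C3H, which limits the comparison. For the resident gene Cd5l and for Tyrobp no pairwise difference passed.

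For 129 minus B6J, C3H minus B6J, C3H minus B6N and B6N minus B6J limma called 0 members, against 0.00502%, 0.0401%, 0.0451% and 0% of all genes. At an unadjusted p under 0.05 there were 6, 5, 4 and 6 members, against 2.93%, 4.30%, 3.77% and 3.05% of all genes. Between B6N and B6J controls, whose levels share a scale, 0 members were called (1 unadjusted, Aif1, 0.39 ± 0.15), against 0.0351% of all genes (6.85% unadjusted). The F test called 0 members with the replicate number as a block and 0 without 129 HFD replicate 6, and with the acinar covariate it called Cysltr1 alone. With array weights it called Mpeg1 and not Tlr13. Of the 72 fits that left out 1 array each, 26 lost the F test call of Cd44, 11 that of Ccl9, 7 that of Tlr13 and 2 that of Cysltr1 (129 HFD replicates 1 and 6). The Ccl9 call in 129 minus B6N was lost without 129 HFD replicate 3 or 6, B6N control replicate 3, or B6N HFD replicate 5 or 6. Fold changes of separately normalised sets may be compressed unequally, which limits every difference that involves 129 or C3H.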

How the data were processed

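Liver RNA was hybridised to Affymetrix mouse whole-transcript arrays. The authors deposited 1 log2 signal for each probe set and array. They used RMA and Affymetrix Expression Console 1.1, as the submitters' processing notes state. The table held 35556 probe sets on 72 arrays, and no columns were identical. Array medians followed strain, so 3 sets (129, B6, C3H) were treated as normalised apart, and levels were compared within a set.

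Each gene was fitted with 1 mean for each of 8 groups over all 72 arrays (limma 3.58.1, R 4.3.3; 64 residual degrees of freedom), two-sided, moderated by eBayes, with Benjamini-Hochberg adjustment over 19938 genes. Every adjusted p is from this fit or a named alternative. The SEs and intervals use the spread of this fit, pooled over all groups. Where a gene varied more in the groups compared, its interval may be too narrow. The p-values rest on the spread between samples, which may be partly technical, since the labels do not say which mice shared a litter or day. The number of arrays limits the precision. The fit was tested on simulated data.

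The members and lists were chosen with earlier results of these data known. Members called in any comparison and the 3 largest changes of each strain are given by array range. Named genes of other lists are called ones with the smallest p. The replicate numbers came from the sample titles. After group means were taken out, HFD and control arrays of the same number correlated in most pairs of 3 strains. The correlation was over 0.1 in 6 of 7 pairs of 129 (-0.22 to 0.30) and 5 of 7 of B6J (-0.29 to 0.50). It was so in 8 of 8 pairs of B6N (0.10 to 0.46) and 1 of 8 of C3H (-0.27 to 0.19). Some genes of the lists are not reported here, and list counts are over the genes used.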

Additional observations from a re-analysis of the deposited data

Results flagged for a closer look

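In 64 sets of values of 4 to 10 arrays, 4 had an end array far from the others by Dixon's criterion, about what chance gives, since chance marks about 1 set in 20. Adgre1 was 11.11 on 129 HFD replicate 6, against 8.07 to 9.0 on the other 129 HFD arrays. Cd68 was 7.79 on 129 control replicate 6 and 8.22 to 8.56 on the other controls, and Folr2 was 7.67 on 129 control replicate 5 and 8.03 to 8.25 on the others. The mean of the 7 recruited monocyte and chemokine genes was 3.83 on C3H HFD replicate 6 and 3.46 to 3.57 on the other C3H HFD arrays.

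The HFD effect differed between strains for 4 members. The change in 129 minus that in B6N was 1.06 for Ccl9 and 0.69 for Cysltr1, and the change in 129 minus that in C3H was 0.75 for Cd44 and 0.94 for Tlr13. The F tests over the 4 strains gave limma adjusted p-values of 0.034 for Ccl9, 0.043 for Cd44, 0.014 for Cysltr1 and 0.029 for Tlr13.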

How the results depend on the processing

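No called change of a member changed sign under any alternative run. In 129 the 14 calls were 9 with quantile normalisation, 1 with only the arrays of 129 in the fit, and 5 without both arrays numbered 6. Bright genes only, array weights, the replicate block, the part of the array set, the acinar covariate and all probe sets gave 11 to 19. Leaving out 1 array gave 6 to 16. In B6J, where 0 were called, Ccl9 made it 1 with quantile normalisation, array weights, the replicate block (adjusted p = 0.025, within 0.00031 to 0.40 over its alternatives) or the part, and 0 to 1 when 1 array was left out. B6N had 1 call (Ccl9) under every alternative. C3H had 0, and 1 within part 1 of its arrays (Clec4f). The mean effect had 12 to 19 calls in place of 15, and 1 over B6J, B6N and C3H alone. The F test had 4 calls, 4 with array weights (Mpeg1 in place of Tlr13), 5 with the part (Fcer1g added), 2 with bright genes, 0 with the replicate block, 1 with the acinar covariate, and 0 to 6 when 1 array was left out. Of the pairwise differences, 129 minus B6N (2) had 1 with bright genes, with only the arrays of these strains and with the acinar covariate, and 1 to 3 when 1 array was left out. The difference 129 minus C3H (2) had 1 with bright genes, with only these strains and with the replicate block, 4 with the part, and 2 to 5 when 1 array was left out (5 without 129 HFD replicate 2). C3H minus B6N (0) had 1, Ccl9, with quantile normalisation, only these strains or the part, and 0 to 1 when 1 array was left out. Tlr13, Cysltr1, Spi1 and Aif1 are not among the bright genes and could not be called there. The causes of the other changes were not tested. Whether the numbers pair the arrays is not settled. An HFD array was nearest the control of its own number in 1 of 7, 2 of 7, 2 of 8 and 0 of 8 pairs of 129, B6J, B6N and C3H. The block could not be fitted for B6N minus B6J controls, and the fit of compared strains alone does not apply to the mean effect and the F test. Settings that leave out both arrays numbered 6, split the parts or average 3 strains were chosen after seeing the data.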
